A study of Homo sapiens with 6 samples.

Results

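The genes described here encode actin-binding and contractile proteins, and were chosen by symbol from a list of 41 that covers transgelins, calponins, tropomyosins, caldesmon, filamins, alpha-actinins, PDZ-LIM and other LIM proteins, severing and disassembly factors, monomer-binding proteins, formins and Ena/VASP proteins. All 41 were found among the 58395 genes of the deposited table, and each had enough counts to be tested. They fall into 12 families, 11 of which hold more than 1 member.

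Actin filaments are built from monomers that profilins and thymosins hold in reserve, are started and elongated by formins and Ena/VASP proteins, and are cut or taken apart by gelsolin-type proteins, coronins and cofilin's partners. Tropomyosins, calponins, caldesmon and transgelins decorate the sides of filaments, and alpha-actinins and filamins link filaments into bundles and networks. Many PDZ-LIM and LIM proteins sit on these bundles as adaptors, and in invasive breast cancer cells such bundles form the core of invadopodia, the protrusions that degrade matrix. Several of the genes are classical targets of serum response factor (SRF), a transcription factor that reads a short promoter element called the CArG box.

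RNA was sequenced from MDA-MB-231 cells, an established human line from a triple-negative mammary adenocarcinoma, after transfection with an siRNA against CRP2 (siCRP2, n = 3) or with non-targeting siRNA (siCTR, n = 3). CRP2 is the 2-LIM-domain protein encoded by CSRP2, which bundles actin filaments and, in smooth muscle, also acts with SRF. Cells were harvested 65 h after transfection per the labels, and differed in nothing else that the labels give. The knockdown libraries carried a single siRNA sequence against CRP2, so an action of that siRNA on other transcripts and the loss of CRP2 cannot be told apart.

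The libraries held 17336798 to 39115778 counts, so that 1 count stood for 0.0256 to 0.0582 CPM, the counts scaled to a fixed total for each library. CSRP2 had 2.17, 1.78 and 1.89 CPM in siCRP2 cells (columns 0412, 0611 and 1311), against 13.7, 11.7 and 11.4 CPM in siCTR cells. Its log2 fold change was -2.66 (SE 0.178, adjusted p = 2.42e-08), so the labels fitted the targeted gene. The line expressed the keratin and junction genes KRT7, KRT8, KRT18, KRT19, EPCAM and CDH1, summed to 2463 to 2701 CPM in siCRP2 cells and 2333 to 2987 CPM in siCTR cells. Of these 6, CDH1 (E-cadherin) rose, at 33.2 ± 5.59 CPM in siCRP2 cells and 17.4 ± 3.38 CPM in siCTR cells (SD, n = 3 each, log2 fold change 0.94, edgeR adjusted p = 0.000652), and its part in the results was not tested. The line also expressed the mesenchymal genes VIM and CD44, which summed to 2125 to 2776 CPM in siCRP2 cells and 2282 to 3255 CPM in siCTR cells. The 8 genes of differentiated muscle summed to 88.7 to 99.1 CPM in siCRP2 cells and 81.9 to 88.3 CPM in siCTR cells, most of it from TNNT1, a slow muscle troponin, at 91.3 CPM in siCRP2 cells and 79 CPM in siCTR cells (edgeR adjusted p = 0.0956). Of the other muscle genes, MYH3, an embryonic myosin, averaged 2.98 CPM in siCRP2 cells and 4.73 CPM in siCTR cells and was lower, as were ACTC1 and TTN at under 1 CPM. ACTC1 had 0 counts in all over the siCRP2 libraries and 7 over the siCTR libraries. MYH7, a cardiac and slow muscle myosin, had no count in any library, and MYH11, the smooth muscle myosin, averaged 0.00853 CPM in siCRP2 cells and 0.0194 CPM in siCTR cells. The leukocyte genes summed to at most 1.03 CPM in siCRP2 cells and 1.75 CPM in siCTR cells, and LYZ among them was lower (log2 fold change -1.51, edgeR adjusted p = 0.00517). The 3 endothelial genes summed to 5.08 to 7.42 CPM in siCRP2 cells and 9.75 to 22 CPM in siCTR cells, nearly all of it from PECAM1. PECAM1 was lower (log2 fold change -1.47, edgeR adjusted p = 0.00989). The part of these markers in the results below was not tested. The libraries are named here by the code that ends their column names (0412, 0611 or 1311). Both groups share these codes, and libraries with the same code deviated together.

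Calls are from edgeR's quasi-likelihood test without pairing by code, unless stated. Of the 41 genes, 5 were lower and 12 higher in siCRP2 cells at an adjusted p under 0.05, and 24 passed in neither direction. That is 12.2% lower, against 11.5% of all 23806 genes tested, and 29.3% higher, against 12.5%. The lower share thus lay near the background. Abundant genes were called more often: of the 36 actin-binding genes that averaged 10 CPM or more, 11.1% were lower and 33.3% higher, against 17.5% and 26.9% of all 9629 genes at that level. The median log2 fold change was 0.08 for the 41 genes and -0.02 for all genes tested, and 0.14 and 0.09 among those at 10 CPM or more.

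Past 2-fold, 3 of the 41 genes were lower (ACTN4, PDLIM7 and TAGLN3), against 1073 of all 23806 genes tested (4.51%). Only 1 was higher by that much (DAAM1), against 322 (1.35%). At 10 CPM or more it was 2 lower and 1 higher of 36, against 331 and 121 of 9629. These member counts are too small to compare with the shares of all genes. The 3 libraries of a group did not overlap those of the other for 7 lower and 12 higher of the 41 genes, against 18.0% and 19.4% of all genes. Abundant genes were apart more often here too. Of the 36 that averaged 10 CPM or more, 5 were lower and 11 higher without overlap, against 2181 and 3493 of all 9629 genes at that level. The 12 higher genes are thus not an excess once level is taken into account. In bulk RNA, fewer cells that express a gene and less RNA of it per cell cannot be told apart.

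With the code as a block in the fit, 9 genes were lower and 17 higher. The shares of all genes were then 17.8% and 19.5%. The genes added were TAGLN, FLNA, CORO1B and FHOD1 as lower and TPM1, FLNC, PDLIM2, PFN2 and FMNL2 as higher. The blocked fit had few pairs of libraries for each gene, so its p values leaned on spread estimated across genes. Very small p values from it are therefore not near-certain evidence from the pairs alone. Of the 17 calls without the block, 9 held under all alternatives tried, and 8 were lost under at least 1. ACTN4, PDLIM7, LASP1 and GSN held as lower. CNN2, PDLIM1, CORO1C, DIAPH3 and DAAM1 held as higher.

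**Figure D1:**
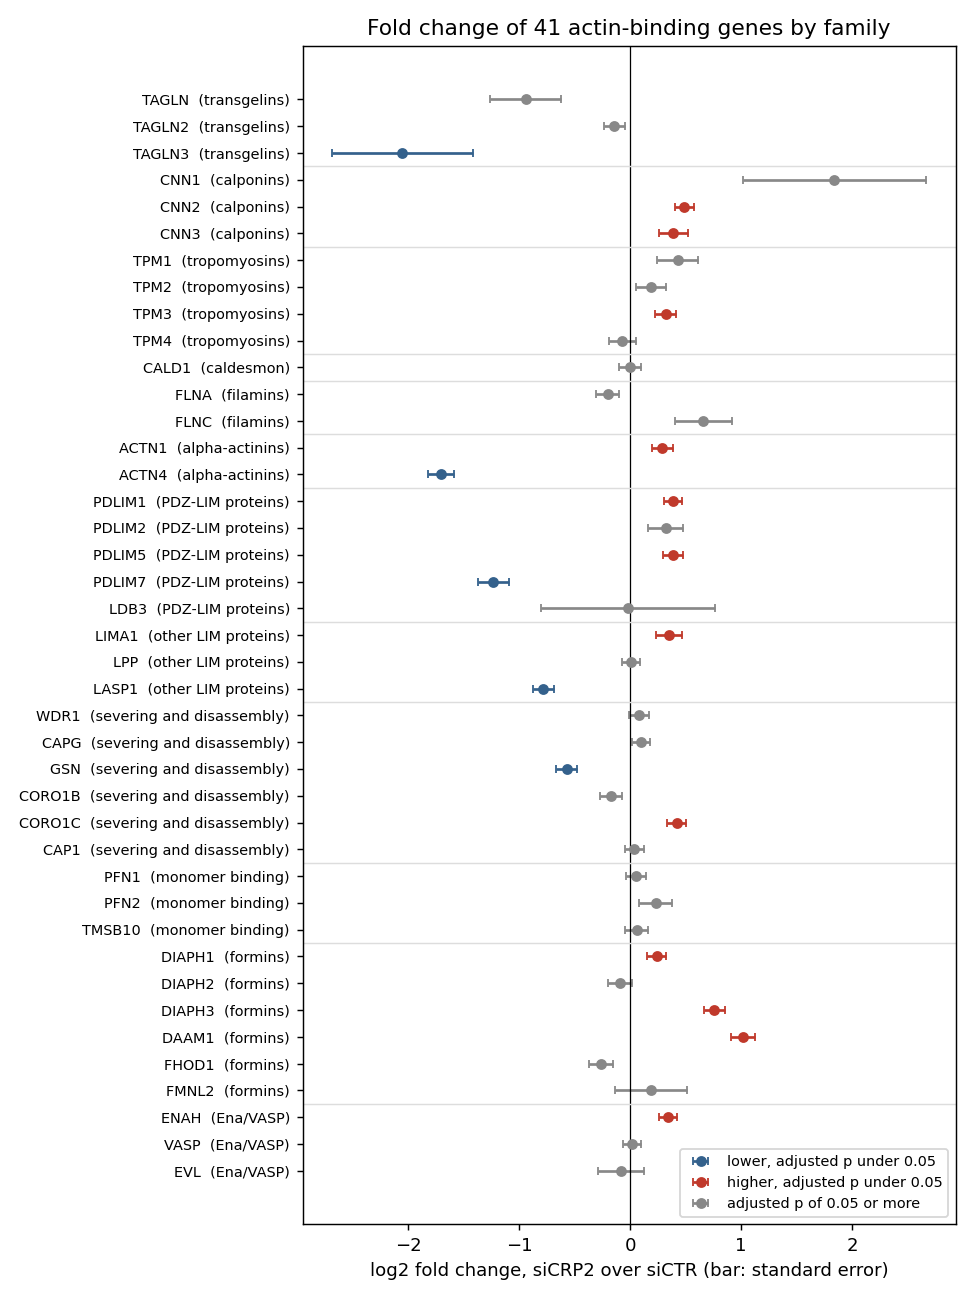
Log2 fold change (x axis, siCRP2 over siCTR, bars are standard errors) of the 41 actin-binding genes, grouped by family down the page. The 5 lower genes sit at -2.05 to -0.57, and the 12 higher ones at 0.24 to 1.02. Low-count genes such as CNN1 have wide bars.

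ACTN4, which encodes the non-muscle crosslinker alpha-actinin-4, had the smallest p of the 41 genes. It had 269.7, 371 and 351 CPM in siCRP2 cells, against 1116, 976 and 1130.0 CPM in siCTR cells. Every siCRP2 library lay below every siCTR library by a wide margin. It fell by 1.70 on the log2 scale (SE 0.116, adjusted p = 8.85e-08), which is 0.308 of the level in siCTR cells. Leaving out any library moved it between -1.82 and -1.58.

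The gene lies on chromosome 19 (38647649 to 38731589, plus strand, GRCh38). Exonic sequence of CAPN12 on the other strand covers 14.2% of its exon bases. CAPN12, a calpain protease gene, averaged 0.763 CPM in siCRP2 cells and 2.39 CPM in siCTR cells (log2 fold change -1.68, adjusted p = 0.00805). The strand setting of the counting is not given in the sources used here, so reads of the 2 genes in the shared stretch cannot be told apart. The 3' UTR part of exon 21 of ACTN4 holds 2 copies of a heptamer that is taken up again below, printed in capitals within 29 bases of the transcript at chr19:38729753-38729759 and chr19:38730061-38730067 (heptamer positions).
ACTN4 site 1: tgccctgggatGCCTCACcacacccaggt
ACTN4 site 2: tgctttgtctgGCCTCACgtgtctcagat

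ACTN1, the closely related alpha-actinin-1 of stress fibres, moved the other way. It had 792, 801 and 841 CPM in siCRP2 cells, against 709.8, 583 and 696 CPM in siCTR cells. The groups did not overlap, but siCTR 0412 came near the lowest siCRP2 library. It rose by 0.29 on the log2 scale (SE 0.0936, adjusted p = 0.0306). That call was lost without siCRP2 0412 (adjusted p = 0.0727), siCRP2 0611 (0.131), siCRP2 1311 (0.217) or siCTR 0611 (0.175), with log2 fold changes of 0.21 to 0.30.

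Per kilobase of canonical transcript, ACTN4 held 23.2 ± 2.73% of the alpha-actinin total in siCRP2 cells and 54.8 ± 0.78% in siCTR cells (SD, n = 3 each). The difference of -31.5 points had an exact two-sided permutation p of 0.1, the smallest that 3 against 3 can give. The summed level of both genes was 267, 289 and 296 CPM per kb in siCRP2 cells, against 414, 352 and 413 CPM per kb in siCTR cells (exact permutation p = 0.1). ACTN4 was thus the more abundant alpha-actinin mRNA in each siCTR library and the less abundant one in each siCRP2 library.

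**Figure D2:**
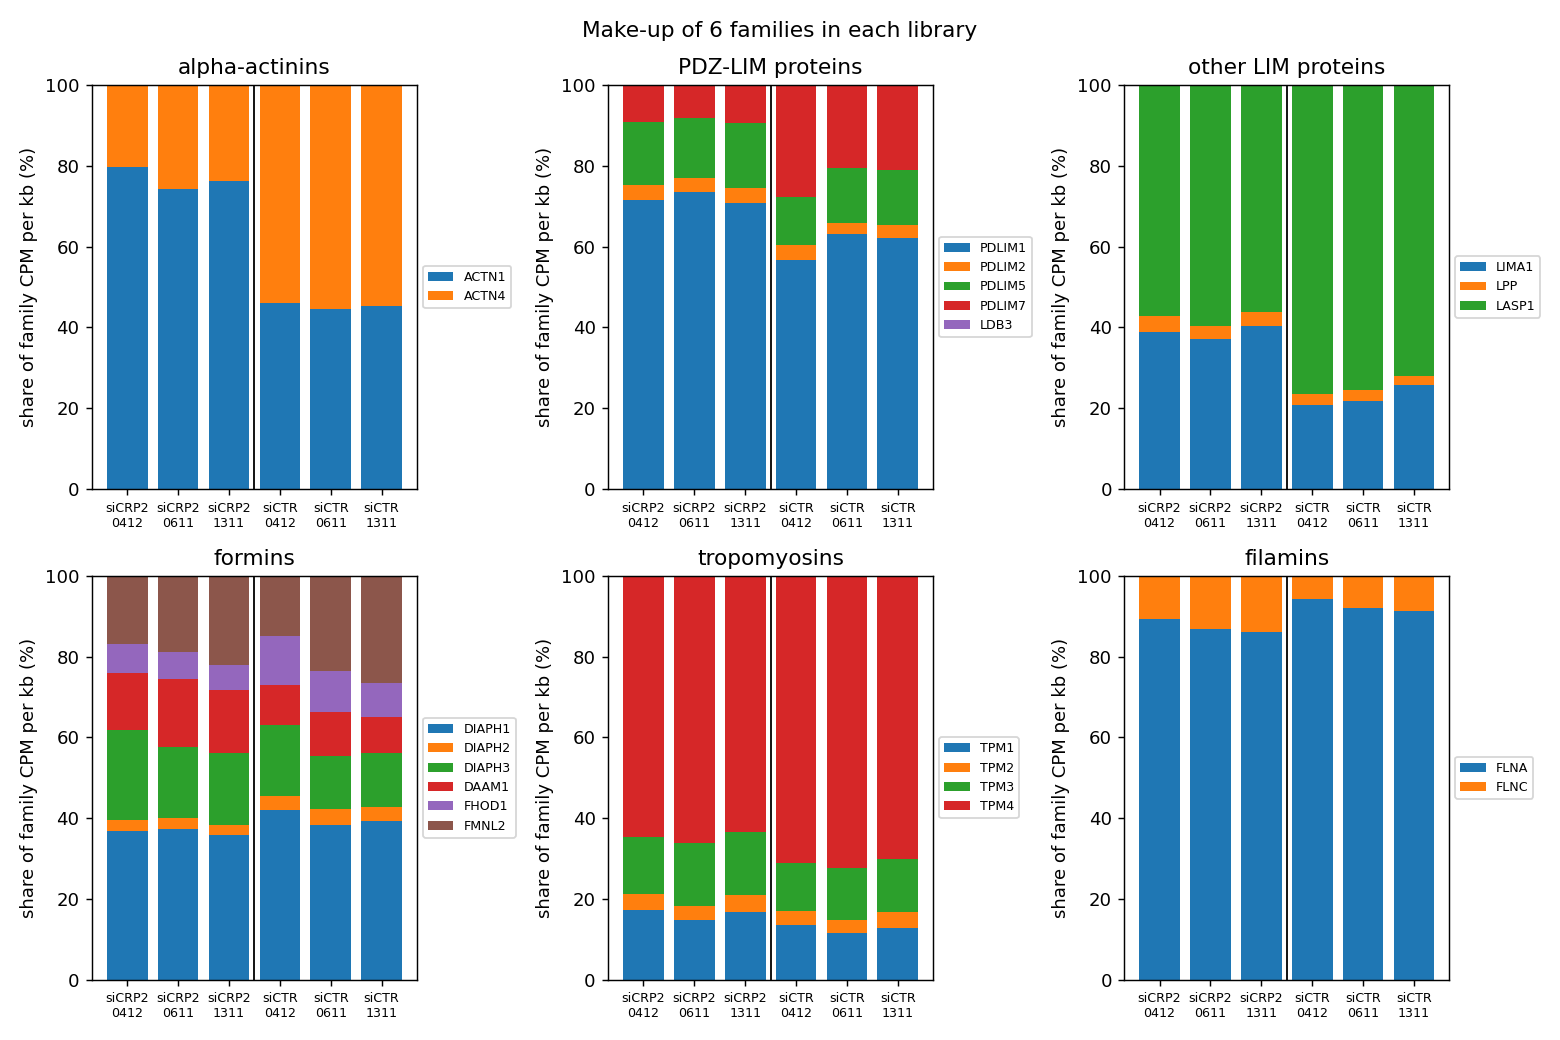
Share of each gene (y axis, percent of the family's summed CPM per kb of canonical transcript) in 6 families, with 1 bar per library and the siCRP2 libraries left of the black line. ACTN4 filled 20.3% to 25.7% of the alpha-actinin bar in siCRP2 libraries and 54% to 55.5% in siCTR libraries. PDLIM7 and LASP1 also took smaller shares of their families in siCRP2 libraries.

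Among the 5 PDZ-LIM genes, whose proteins carry a PDZ domain that binds alpha-actinin and 1 or more LIM domains, PDLIM7 fell and PDLIM1 and PDLIM5 rose. PDLIM7 (enigma), an adaptor on stress fibres, had 35.9, 31.4 and 37.7 CPM in siCRP2 cells, against 101, 67.6 and 77.4 CPM in siCTR cells. All siCRP2 libraries were lower. Its log2 fold change was -1.23 (SE 0.139, adjusted p = 5.63e-05). PDLIM7 lies on the minus strand of chromosome 5 and holds the heptamer once, in the coding sequence of exon 3 (chr5:177492589-177492595), shown here in capitals.
PDLIM7 site: gaatgcgggtaGCCTCACacacatcgaag

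PDLIM1 (CLP36), the most abundant of the 5 per kilobase, had 234, 235 and 238 CPM in siCRP2 cells, against 173, 173 and 191 CPM in siCTR cells. Its siCRP2 libraries were nearly equal and all lay higher. PDLIM1 rose by 0.39 on the log2 scale (SE 0.0814, adjusted p = 0.00168). PDLIM5 (ENH), an adaptor that also binds protein kinase C, had 214, 201 and 229 CPM in siCRP2 cells, against 154, 158 and 179 CPM in siCTR cells. Here too the groups did not overlap, and the log2 fold change was 0.39 (SE 0.0886, adjusted p = 0.00322). Without siCRP2 1311 the PDLIM5 call was lost (log2 fold change 0.32, adjusted p = 0.0548).

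PDLIM2 (mystique), at 12.3 to 13.2 CPM in siCRP2 cells and 8.04 to 12.3 CPM in siCTR cells, did not pass (adjusted p = 0.159). With the code as a block its log2 fold change was 0.33 (adjusted p = 0.00785), and without siCTR 0412 it was 0.48 (adjusted p = 0.0321). Without siCTR 0611 it was 0.18 (adjusted p = 0.48). LDB3 (ZASP), a Z-disc protein of striated muscle, had 12 counts over the siCRP2 libraries and 10 over the siCTR libraries. Per kilobase, PDLIM7 held 8.92 ± 0.635% of the PDZ-LIM total in siCRP2 cells and 23.1 ± 3.97% in siCTR cells, while PDLIM1 held 72 ± 1.3% and 60.7 ± 3.43% (SD, n = 3 each). Both shares had an exact permutation p of 0.1.

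The other LIM genes also split. LASP1, which encodes a LIM and SH3 adaptor found at focal adhesions and invadopodia, had 367, 468 and 412 CPM in siCRP2 cells, against 694, 719 and 731 CPM in siCTR cells. The siCTR libraries were close together, and each siCRP2 library lay well below them. LASP1 fell by 0.78 on the log2 scale (SE 0.0959, adjusted p = 1.48e-05). LASP1 lies on the plus strand of chromosome 17 and holds the heptamer in the coding sequence of exon 5 and at 2 places in the 3' UTR of exon 7. These are chr17:38914447-38914453, chr17:38919069-38919075 and chr17:38920449-38920455.
LASP1 coding site: gagcagcagcaGCCTCACcacatcccgac
LASP1 3' UTR site 1: ttggcctgtggGCCTCACctgcccctctg
LASP1 3' UTR site 2: tgacaaccctgGCCTCACttgattcatct

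LIMA1 (EPLIN), which binds the sides of filaments and slows their disassembly, had 234, 274 and 279 CPM in siCRP2 cells, against 176, 196 and 245 CPM in siCTR cells. The groups overlapped, since siCTR 1311 lay above siCRP2 0412. It passed narrowly (log2 fold change 0.35, SE 0.117, adjusted p = 0.0449), and all 3 pairs with a shared code were higher. The call was lost without siCRP2 0611 (adjusted p = 0.231), siCRP2 1311 (0.215), siCTR 0412 (0.106) or siCTR 0611 (0.167), at log2 fold changes of 0.25 to 0.32. LPP, a focal adhesion protein related to zyxin, had 115 to 120.0 CPM in siCRP2 cells and 109 to 119 CPM in siCTR cells. Its log2 fold change was 0.01 (SE 0.0815, adjusted p = 0.926). Its 3' UTR of 16192 bases holds 2 copies of the heptamer. Of the per-kilobase total of the 3 genes, LASP1 held 57.7 ± 1.82% in siCRP2 cells and 74.7 ± 2.36% in siCTR cells (SD, n = 3 each, exact permutation p = 0.1).

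The filamins, which crosslink filaments into orthogonal networks and tether them to integrins, did not pass without the block. FLNA (filamin A), the gene with the most counts in the list, had 2008, 2126 and 2276 CPM in siCRP2 cells, against 2545, 2092 and 2724 CPM in siCTR cells. The groups overlapped, with siCTR 0611 at the level of the siCRP2 libraries. Its log2 fold change was -0.20 (SE 0.105, adjusted p = 0.195), or -0.19 with the code as a block (adjusted p = 0.00972). FLNC (filamin C), the form of muscle, had 262, 350.2 and 396 CPM in siCRP2 cells, against 167, 194 and 278 CPM in siCTR cells.

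The FLNC groups overlapped, but within each code the siCRP2 library was higher, with log2 ratios of 0.65, 0.85 and 0.51. The log2 fold change was 0.66 (SE 0.255, adjusted p = 0.148). With the block it was 0.67 (adjusted p = 1.07e-24), and without siCTR 1311 it was 0.90 (adjusted p = 0.0079), while without any other library it was 0.50 to 0.80 and did not pass. It also passed in DESeq2 (adjusted p = 0.00434) and in edgeR's exact test (0.00715). FLNC held 12.7 ± 1.63% of the filamin total per kilobase in siCRP2 cells and 7.45 ± 1.52% in siCTR cells (SD, n = 3 each, exact permutation p = 0.1).

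Of the 3 calponins, which bind the sides of actin filaments, CNN2 and CNN3 were higher. CNN2 had 305, 304 and 306 CPM in siCRP2 cells, against 214, 202 and 234 CPM in siCTR cells. The siCRP2 libraries were nearly equal, and all were higher than any siCTR library. CNN2 rose by 0.49 on the log2 scale (SE 0.0843, adjusted p = 0.000351). CNN3, the acidic form and the most abundant calponin per kilobase, had 790.3, 691 and 651 CPM in siCRP2 cells, against 657, 513 and 457 CPM in siCTR cells.

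The CNN3 groups overlapped slightly, yet each code on its own was higher. It passed with a log2 fold change of 0.39 (SE 0.128, adjusted p = 0.0431). That call was lost without siCRP2 0412 (adjusted p = 0.15), siCRP2 0611 (0.111), siCTR 0611 (0.158) or siCTR 1311 (0.0953), at log2 fold changes of 0.28 to 0.38. CNN1, the smooth muscle calponin, had 14 counts over the siCRP2 libraries and 3 over the siCTR libraries and did not pass (adjusted p = 0.125). Summed per kilobase, the calponins were at 499 ± 35.8 CPM per kb in siCRP2 cells and 373 ± 49.3 CPM per kb in siCTR cells (SD, n = 3 each, exact permutation p = 0.1). The share of CNN2 in that sum was 28.5 ± 2.03% and 27.4 ± 4.55% (exact permutation p = 0.8).

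Transgelins are small calponin-related proteins, and TAGLN (SM22) is a marker of smooth muscle. The abundant member here was TAGLN2, with 687, 653 and 575 CPM in siCRP2 cells, against 766, 720.3 and 629 CPM in siCTR cells. The groups overlapped, and the log2 fold change was -0.14 (SE 0.0983, adjusted p = 0.332). TAGLN had 3.65, 2.72 and 3.92 CPM in siCRP2 cells, against 10.1, 4.13 and 5.44 CPM in siCTR cells. Every siCRP2 library was lower, but siCTR 0412 lay far above the other siCTR libraries.

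TAGLN missed the threshold (log2 fold change -0.94, SE 0.317, adjusted p = 0.0597). It passed with the code as a block (log2 fold change -0.87, adjusted p = 8.43e-08) and without siCTR 0611 (-1.18, adjusted p = 0.0115). Without siCTR 0412 it was -0.48 (adjusted p = 0.142), and it did not pass without any of the other libraries (adjusted p = 0.0673 to 0.165). It also passed in DESeq2 (adjusted p = 0.00779), in edgeR's exact test (0.0201), with no filter (2.71e-05), with edgeR's own filter (0.04) and with thinned counts (0.0133). The log2 ratio was -1.36 in code 0412, -0.52 in code 0611 and -0.43 in code 1311. The fall of TAGLN was thus uneven across the codes, which the small p of the blocked fit does not show. Exons of PCSK7 on the other strand cover 34.1% of the exon bases of TAGLN, and PCSK7, a proprotein convertase gene, stood at 40.8 CPM in siCRP2 cells and 41.5 CPM in siCTR cells. Without a stated strand setting, TAGLN counts in the shared stretch are uncertain. The annotated 3' UTR of TAGLN on chromosome 11 holds 3 copies of the heptamer in exon 5, which no other 3' UTR in the list exceeded. They lie at chr11:117204428-117204434, chr11:117207280-117207286 and chr11:117207319-117207325.
TAGLN site 1: ccgcttagcctGCCTCACccacacccgtg
TAGLN site 2: ctccaggagctGCCTCACtgtgtcccact
TAGLN site 3: tctgcagaaggGCCTCACtgggtgccctt

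TAGLN3, a neuronal form, was at the edge of detection, with 2, 1 and 8 counts in siCRP2 cells, against 26, 7 and 5 counts in siCTR cells. As CPM the groups did not overlap, and the fit called it lower (log2 fold change -2.05, SE 0.632, adjusted p = 0.0265). The call rested on few counts. It was lost without siCRP2 0412 (adjusted p = 0.0797), siCRP2 0611 (0.103), siCTR 0412 (0.243) or siCTR 0611 (0.0504), at log2 fold changes of -2.22 to -1.17.

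Tropomyosins form cables along filaments and set which myosins and severing factors can bind. TPM4, the most abundant per kilobase, had 1093, 956 and 872 CPM in siCRP2 cells, against 1210.2, 988 and 869 CPM in siCTR cells. The groups overlapped throughout, and the log2 fold change was -0.07 (SE 0.122, adjusted p = 0.736). TPM3 had 687, 646 and 616 CPM in siCRP2 cells, against 582, 509 and 466 CPM in siCTR cells. In both groups code 0412 was highest and code 1311 lowest, and the siCRP2 libraries were all above the siCTR ones.

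TPM3 passed (log2 fold change 0.32, SE 0.0956, adjusted p = 0.019). The call was lost without siCRP2 0412 (adjusted p = 0.0918), siCRP2 0611 (0.0885), siCRP2 1311 (0.0668), siCTR 0611 (0.0862) or siCTR 1311 (0.0779), at log2 fold changes of 0.25 to 0.34. TPM1, the form induced in stress fibres and muscle, had 144, 106 and 113 CPM in siCRP2 cells, against 113, 77.3 and 78.6 CPM in siCTR cells. siCTR 0412 reached the level of siCRP2 1311, so the groups overlapped. Its log2 fold change was 0.43 (SE 0.183, adjusted p = 0.15), or 0.44 with the code as a block (adjusted p = 1.06e-10), and it passed without siCTR 0412 (0.63, adjusted p = 0.000703). Without siCRP2 0412 it was 0.28 (adjusted p = 0.291). TPM1-AS on the other strand, which covers 18.0% of its exon bases, averaged 0.101 CPM in siCRP2 cells and 0.166 CPM in siCTR cells.

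TPM2 was at 23.1 to 31.5 CPM in siCRP2 cells and 21.3 to 28.4 CPM in siCTR cells (adjusted p = 0.346). Per kilobase, TPM4 held 64.7 ± 1.4% of the tropomyosin total in siCRP2 cells and 71.2 ± 1.04% in siCTR cells, TPM1 held 16.3 ± 1.27% and 12.6 ± 1.02%, and TPM3 held 15.2 ± 0.846% and 12.7 ± 0.657% (SD, n = 3 each). None of these 3 shares overlapped between the groups (exact permutation p = 0.1 each). The canonical transcript is 7064 bases for TPM3 and 1217 for TPM1, and the shares depend on these lengths. The tropomyosin sum was 608 ± 67.3 CPM per kb in siCRP2 cells and 581 ± 96.7 CPM per kb in siCTR cells (exact permutation p = 0.7). CALD1 (caldesmon), which binds tropomyosin-coated filaments and restrains myosin, had 321, 276 and 277 CPM in siCRP2 cells, against 329.7, 280.0 and 266 CPM in siCTR cells. The groups overlapped, and its log2 fold change was -0.00 (SE 0.0975, adjusted p = 0.989).

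**Figure D3:**
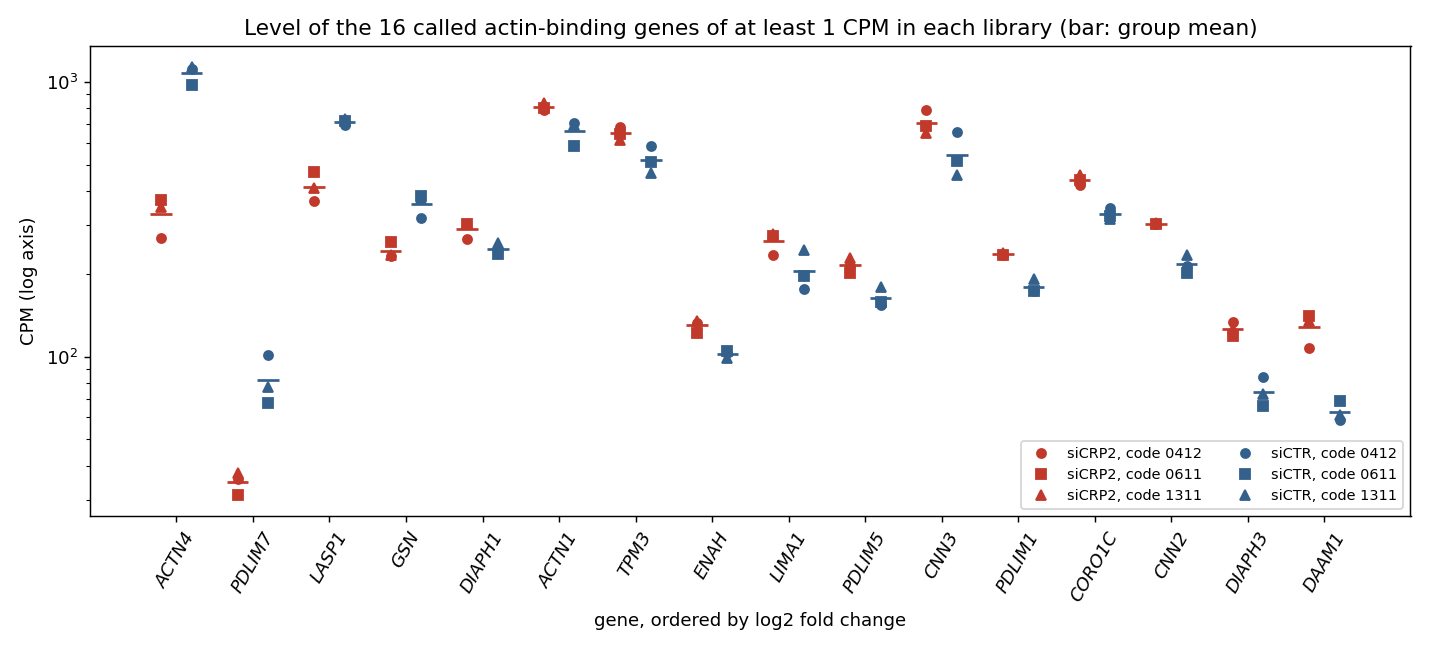
CPM (y axis, log scale) in each library for the 16 called genes that averaged 1 CPM or more, with siCRP2 in red to the left of siCTR in blue. Points are single libraries, marker shapes are codes and bars are group means. ACTN4, PDLIM7, LASP1 and GSN lie lower in every siCRP2 library.

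Of the severing and disassembly factors, GSN fell and CORO1C rose. GSN (gelsolin), a calcium-dependent protein that cuts and caps filaments, had 232, 261 and 234 CPM in siCRP2 cells, against 319, 383 and 376 CPM in siCTR cells. The groups were well apart. GSN fell by 0.57 on the log2 scale (SE 0.0927, adjusted p = 0.000222). GSN holds no copy of the heptamer in its canonical transcript.

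CORO1C, a coronin that works with cofilin and the Arp2/3 complex at the cell edge, had 423, 441 and 458 CPM in siCRP2 cells, against 348, 325 and 318 CPM in siCTR cells. All siCRP2 libraries were higher (log2 fold change 0.42, SE 0.0835, adjusted p = 0.00136). CORO1B, a coronin of the same type, had 114 to 130.5 CPM in siCRP2 cells and 128 to 160.5 CPM in siCTR cells. It did not pass (log2 fold change -0.17, adjusted p = 0.25) except with the code as a block (-0.17, adjusted p = 0.0274). PTPRCAP, which shares 17.0% of its exon bases on the same strand, had no count in any library, so counts of both are uncertain there. The 3' UTR of CORO1B holds the heptamer at chr11:67437100-67437106 and chr11:67436700-67436706.

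CAP1, the cyclase-associated protein that recycles cofilin-bound monomers and was the most abundant of these genes per kilobase, had 709, 794 and 718 CPM in siCRP2 cells, against 749, 719.6 and 688 CPM in siCTR cells. The groups overlapped and the log2 fold change was 0.04 (SE 0.0872, adjusted p = 0.776). WDR1 (AIP1), which speeds disassembly by cofilin, was at 721 to 864 CPM in siCRP2 cells and 723 to 798 CPM in siCTR cells (adjusted p = 0.626). CAPG, a capping protein related to gelsolin, was at 275 to 289 CPM in siCRP2 cells and 257 to 270.0 CPM in siCTR cells. CAPG thus did not overlap between groups, but its log2 fold change of 0.10 did not pass (adjusted p = 0.433). GSN held 9.23 ± 0.258% of the family total per kilobase in siCRP2 cells and 13.9 ± 1.14% in siCTR cells (SD, n = 3 each, exact permutation p = 0.1).

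The monomer-binding genes did not pass without the block. TMSB10 (thymosin beta-10), which sequesters monomers, was the most abundant of the 41 per kilobase and had 1286, 1358 and 1129 CPM in siCRP2 cells, against 1235, 1318 and 1064 CPM in siCTR cells. In both groups code 1311 was lowest, and the groups overlapped (log2 fold change 0.06, SE 0.102, adjusted p = 0.725). PFN1 (profilin-1), which feeds monomers to formins, was at 733 to 775 CPM in siCRP2 cells and 660.2 to 791 CPM in siCTR cells (log2 fold change 0.05, adjusted p = 0.769). The muscle enolase gene ENO3 overlaps 6.94% of its exon bases on the other strand and averaged 10.5 CPM in siCRP2 cells and 6.66 CPM in siCTR cells. PFN2 was at 17 to 19.3 CPM in siCRP2 cells and 12 to 18.6 CPM in siCTR cells, and did not pass (adjusted p = 0.301) except with the block (log2 fold change 0.25, adjusted p = 0.0287). TMSB10, PFN1 and TPM3 have processed copies elsewhere in the genome, and reads that fitted 2 places equally well are not counted by the tool used, so their levels are uncertain to that extent.

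Formins nucleate and elongate unbranched filaments, and DAAM1, DIAPH3 and, narrowly, DIAPH1 of the 6 were higher, against 12.5% of all genes tested and 26.9% of those at 10 CPM or more. DAAM1, a formin that acts in Wnt signalling, had 107, 141 and 135 CPM in siCRP2 cells, against 58.5, 68.6 and 61.2 CPM in siCTR cells. No library of one group came near the other. The log2 fold change was 1.02 (SE 0.108, adjusted p = 4.25e-06), a fold of 2.03. DIAPH3 (mDia2), which builds filopodia and the contractile ring of dividing cells, had 134, 119 and 126 CPM in siCRP2 cells, against 84.2, 66.2 and 73.3 CPM in siCTR cells. Again the groups were apart, with a log2 fold change of 0.76 (SE 0.097, adjusted p = 2.3e-05).

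DIAPH1 (mDia1), the most abundant formin per kilobase, had 268, 304 and 304 CPM in siCRP2 cells, against 245, 236 and 259.8 CPM in siCTR cells. The lowest siCRP2 library was just above the highest siCTR library, and it passed narrowly (log2 fold change 0.24, SE 0.0859, adjusted p = 0.0493). That call was lost without siCRP2 0611 (adjusted p = 0.265), siCRP2 1311 (0.291), siCTR 0412 (0.0786) or siCTR 0611 (0.179), at log2 fold changes of 0.18 to 0.24. It was also lost with RLE size factors, both other filters, thinning and both other tests (adjusted p = 0.0512 to 0.0987).

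FHOD1, a formin that bundles rather than elongates filaments, had 34.7, 35.4 and 34.7 CPM in siCRP2 cells, against 46.6, 41.8 and 37.3 CPM in siCTR cells. Every siCRP2 library was lower, but it missed the threshold (log2 fold change -0.26, SE 0.105, adjusted p = 0.0838). It passed with the block (-0.25, adjusted p = 0.00442) and without siCTR 1311 (-0.34, adjusted p = 0.0262), but not without any other library (-0.30 to -0.18). SLC9A5 overlaps 10.9% of its exon bases on the other strand, at 7.12 CPM in siCRP2 cells and 8.2 CPM in siCTR cells. FMNL2, a formin of lamellipodia, varied by code in both groups, with 119.6, 152 and 185 CPM in siCRP2 cells, against 86, 142 and 173 CPM in siCTR cells.

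In both groups code 0412 had the lowest FMNL2 level and code 1311 the highest, and the groups overlapped (log2 fold change 0.19, SE 0.327, adjusted p = 0.744). With the block it passed (0.22, adjusted p = 0.00179), while without siCTR 0412 the unblocked value was -0.05 (adjusted p = 0.896). DIAPH2 was at 32.8 to 36.8 CPM in siCRP2 cells and 32.7 to 40.1 CPM in siCTR cells (adjusted p = 0.638). The formin sum was 127, 142 and 148 CPM per kb in siCRP2 cells, against 101, 107 and 116 CPM per kb in siCTR cells, with no overlap (exact permutation p = 0.1). DAAM1 held 15.5 ± 1.31% of it in siCRP2 cells and 9.88 ± 0.94% in siCTR cells, and FHOD1 held 6.62 ± 0.512% and 10.2 ± 1.8% (SD, n = 3 each, exact permutation p = 0.1 each).

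Ena/VASP proteins ride on growing filament ends and keep capping protein away. ENAH (Mena), whose invasive splice forms are known from breast tumours, had 133, 122 and 135 CPM in siCRP2 cells, against 103, 105 and 99.1 CPM in siCTR cells. The groups did not overlap (log2 fold change 0.34, SE 0.0825, adjusted p = 0.00519), and the call was lost without siCRP2 1311 (0.29, adjusted p = 0.0621). VASP, the most abundant of the 3 per kilobase, had 117, 112 and 111 CPM in siCRP2 cells, against 111, 112 and 112 CPM in siCTR cells. It was level between groups within 1 SE (log2 fold change 0.02, SE 0.0795, adjusted p = 0.899). EVL was at 4.68 to 5.18 CPM in siCRP2 cells and 4.13 to 6.87 CPM in siCTR cells (adjusted p = 0.822). ENAH held 15.7 ± 0.786% of the per-kilobase total in siCRP2 cells and 12.9 ± 0.348% in siCTR cells (SD, n = 3 each, exact permutation p = 0.1).

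Within the 3 pairs of libraries that share a code, 20 of the 38 genes that averaged 1 CPM or more were higher in siCRP2 cells in all pairs and 8 were lower in all pairs, while 10 were mixed. That is 52.6% and 21.1%, against 41.8% and 33.6% of all 13196 tested genes at that level. ACTN4 had log2 ratios of -2.05 in code 0412, -1.40 in code 0611 and -1.69 in code 1311. DAAM1 had ratios of 0.86, 1.04 and 1.13 in the same order. For the called genes the 3 codes gave 1 direction each, though for TAGLN3 the ratio in code 1311 was only -0.05. These genes were called on the same libraries, so their shared direction adds no support to the calls.

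**Figure D4:**
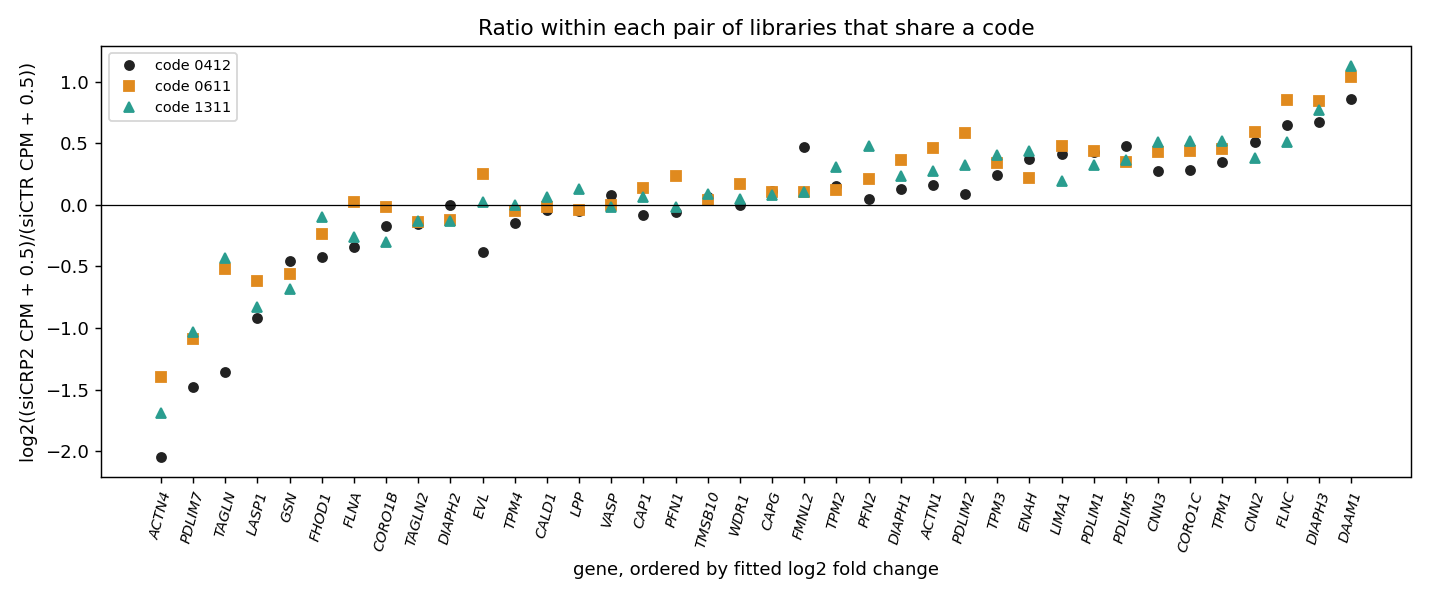
Log2 ratio of CPM plus 0.5 between the siCRP2 and the siCTR library of the same code (y axis) for the 38 genes that averaged 1 CPM or more, ordered by fitted fold change. Each marker shape is 1 code. ACTN4 lies lowest at -2.05 to -1.40 and DAAM1 highest at 0.86 to 1.13.

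The heptamer GCCTCAC shown in the sites above was picked because, of 16380 heptamers in 3' UTRs, genes that hold it were shifted furthest down, relative to the standard error of the shift, in these same libraries. Its distribution is therefore only a description. It was counted on the transcript strand only, in Ensembl canonical transcripts of GENCODE release 44 (GRCh38). The comparison took protein-coding genes that averaged 1 CPM or more and had 50 or more bases of 3' UTR. Of the 38 actin-binding genes among them, 6 (15.8%) held it in the 3' UTR, with a median log2 fold change of -0.47, against 0.19 for the other 32. Of all 11750 genes, 11.3% held it there, with a median of -0.29, against 0.09 for those without it.

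Those 6 are TAGLN, ACTN4, LASP1, LPP, CORO1B and PDLIM2, and their log2 fold changes spanned -1.70 to 0.32. A further 7 genes held it only in coding sequence, at a median of -0.08, and the 28 without it had a median of 0.21. Anywhere in the transcript, 13 of the 41 genes held it, against 2855 of the 11750 genes compared (24.3%). The 13 include LDB3, which averaged under 1 CPM, whereas the 11750 leave out genes at that level. By call, 3 of the 5 lower genes held it (ACTN4, LASP1 and PDLIM7, the last only in coding sequence). So did 2 of the 12 higher genes, PDLIM5 and LIMA1, both in coding sequence. Of the 24 genes that passed in neither direction, 8 held it. GSN and TAGLN3 were lower without it, and LPP and PDLIM2 held it in the 3' UTR without being lower. Which 3' ends these cells use was not measured, and what the heptamer has to do with the fold changes was not tested.

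**Figure D5:**
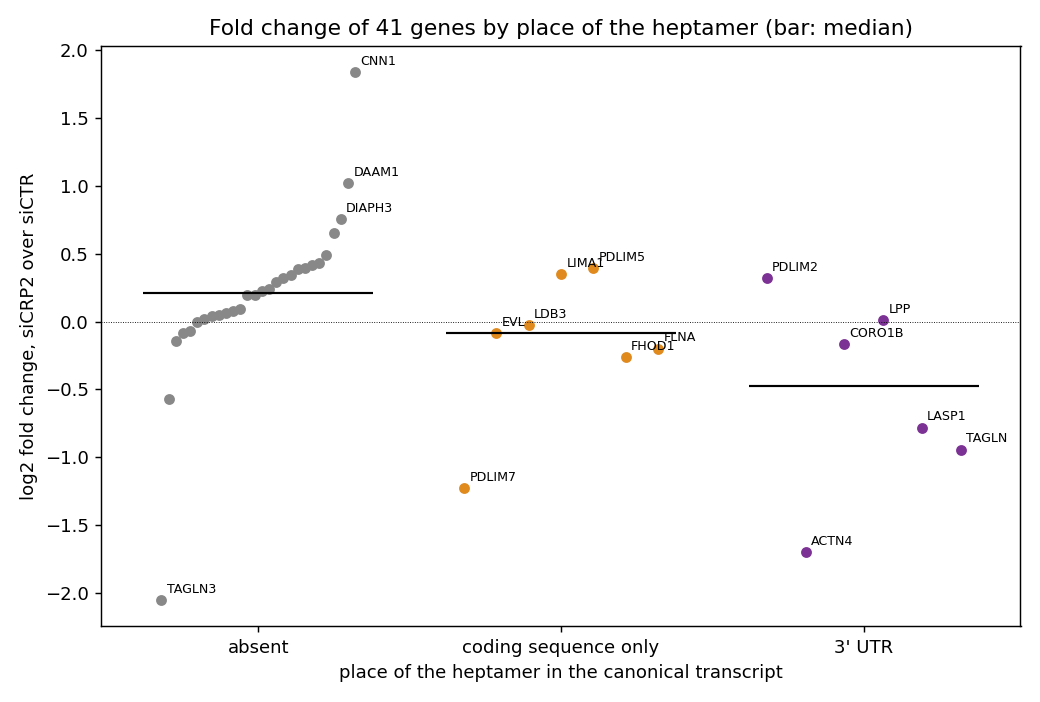
Log2 fold change (y axis) of the 41 genes by where the canonical transcript holds the heptamer: absent, only in coding sequence, or in the 3' UTR. Bars are medians of 0.21, -0.08 and -0.47, and each column holds genes on both sides of 0.

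SRF target genes carry the CArG box, which is CC, then 6 bases of A or T, then GG, and reads the same on both strands. It was searched in RefSeq promoters of GRCh38.p14, each 300 bases long with 250 before and 50 after the start. Entries matched 38 of the 41 genes, with 76 promoters, and the others are TAGLN, PDLIM2 and PFN2. The box was present in 7 of these promoters (9.21%), which belong to 6 genes, against 1.29% of all 35116 promoters of that length. The LDB3 promoters among them overlap and hold the same box. Counted by gene, 15.8% of the 38 had a box, against 1.6% of the 27305 genes with such a promoter. That count by gene is uneven, since 19 of the 38 had more than 1 promoter and so more windows per gene than the rest. The list covers families that hold several classical SRF targets, so these shares only describe it. The 6 genes are printed with the box in capitals and 10 bases on either side, since SRF reads this element and CRP2 is known to act with SRF in smooth muscle.
CNN2, chr19:1026519-1026528, plus strand: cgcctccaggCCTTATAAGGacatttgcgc
TPM4, chr19:16067365-16067374, plus strand: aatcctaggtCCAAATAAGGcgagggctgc
FLNA, chrX:154374719-154374728, minus strand: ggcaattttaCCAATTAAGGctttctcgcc
ACTN1, chr14:68977728-68977737, minus strand: acgctcatgtCCAAAAATGGtaacattcat
LDB3, chr10:86668454-86668463, plus strand: gggttacagtCCATTTATGGgcgcagccga
LPP, chr3:188212529-188212538, plus strand: gcctgcttctCCATATTTGGaaatgtttac

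Of these 6, CNN2 and ACTN1 were higher in siCRP2 cells, and TPM4, FLNA, LDB3 and LPP passed in neither direction without the block, with FLNA lower with it. None of the 5 lower genes had the box in the windows searched, and 2 of the 12 higher genes did. A match says nothing about binding, and its absence says only that these letters are not in the window.

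The wider actin-binding set held 111 further genes, of which 99 were tested. Of these, 17 were lower and 14 higher, or 17.2% and 14.1%, against 11.5% and 12.5% of all genes tested. Of the 62 that averaged 10 CPM or more, 21% were lower and 17.7% higher, against 17.5% and 26.9% of all genes at that level. The median log2 fold change of the 99 was -0.05. With the code as a block 32 were lower and 24 higher, against 17.8% and 19.5% of all genes. The lower count was 11 without siCTR 0611, and the higher count was 9 without siCRP2 1311. The following genes had the smallest p in each direction at a mean of at least 1 CPM.

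PLS1 (plastin-1), a filament bundler of microvilli, had 8.68, 9.53 and 7.99 CPM in siCRP2 cells, against 32.1, 43.2 and 39.8 CPM in siCTR cells (log2 fold change -2.14, adjusted p = 1.63e-08). Its groups were far apart, as were those of CORO2B, a coronin, at 1.74 to 2.91 CPM in siCRP2 cells and 6.13 to 13 CPM in siCTR cells (log2 fold change -2.20). The formin gene FHOD3 fell by 0.52 on the log2 scale, the focal adhesion gene TNS3 (tensin-3) by 0.54, the nucleator gene SPIRE2 by 0.83 and DBN1 (drebrin) by 0.44. None of these 6 overlapped between groups, which their choice by small p in these same libraries makes likely. Of the 99 tested, 24 were lower and 15 higher without overlap, against 18.0% and 19.4% of all genes tested.

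NEXN (nexilin), a filament-binding protein of Z-discs and adhesions, had 40.3, 45.9 and 53 CPM in siCRP2 cells, against 24.3, 22.5 and 26.6 CPM in siCTR cells (log2 fold change 0.92, adjusted p = 2.2e-05). EZR (ezrin) and RDX (radixin), which tie filaments to the membrane, rose by 0.49 and 0.54. UTRN (utrophin) rose by 0.52, TMOD3 (tropomodulin-3), which caps pointed ends, by 0.50, and GMFB (glia maturation factor beta), which takes branches apart, by 0.36. In all 6 the siCRP2 libraries lay above every siCTR library, which again their choice by small p makes likely.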

How the data were processed

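RNA of 6 MDA-MB-231 libraries (TruSeq mRNA, paired-end) was aligned by the authors to GRCh38 with STAR, and the deposited values are raw counts per Ensembl gene from its gene-count option. Not given in the sources used here are the version of STAR, its annotation and its strand setting. A text column that names 4 genes was not used, and 0 columns of values were left out. Symbols and coordinates came from GENCODE release 44 (57754 of 58395 genes matched).

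A gene was kept if 2 or more of the 3 libraries in either group had a count for it. The test was the quasi-likelihood test of edgeR 4.0.16 (R 4.3.3), with robust dispersion, TMM and Benjamini-Hochberg adjustment over all 23806 genes, at 0.05. This follows the 2-group design of the study, which used edgeR's exact test. CPM use TMM-scaled library sizes. Levels between genes are per kilobase of the canonical transcript, so ranks and shares depend on its length. Family shares were compared by an exact two-sided permutation test, whose smallest p is 0.1. The fit was checked on simulated data. No pair of replicates agreed within sampling noise.

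Labels number the replicates, whereas column names carry codes, and no source ties the 2 together. Deviations from group means correlated at 0.723, 0.459 and 0.744 between libraries of the same code. The codes were therefore taken as pairs for the block and for the ratios within a code. The main test and the permutation tests left this pairing out. Alternatives were RLE factors, 2 other filters, DESeq2 1.42.0, edgeR's exact test, the code as a block, thinning to the shallowest library and leaving out each library.

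The 41 genes and the lists were chosen with earlier results of these data known. All 41 are named. Values per library are given for those that passed at a mean of at least 1 CPM and for the most abundant member per kilobase of each family, and for TAGLN, TAGLN3, TPM1, FLNC, FHOD1 and FMNL2, which were added after their values were seen. Of the other actin-binding genes, the 6 lower and 6 higher with the smallest p were named. A count of 0 in a library allows up to 3 counts (0.0768 to 0.175 CPM), by counting error only.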

Additional observations from a re-analysis of the deposited data

How the results depend on the processing

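Of the 17 called actin-binding genes, 9 kept their call under every alternative run, and CSRP2 kept its call under all of them (log2 fold change -2.74 to -2.57 leaving out each library). With the code as a replicate block, 9 members were lower in place of 5 and 17 higher in place of 12, and of the other actin-binding genes 32 were lower in place of 17 and 24 higher in place of 14. The 5 lower and 12 higher members called without the block were all called with it. Leaving out each library in turn, 4 to 6 members were lower and 6 to 12 higher, with 7 higher without siCRP2 0611, 6 without siCRP2 1311 and 7 without siCTR 0611. Of the other genes, 11 to 21 were lower and 9 to 16 higher. Besides the left-out libraries named with each gene, edgeR's own filter ended the calls of ACTN1, CNN3, LIMA1 and DIAPH1 and left TAGLN3 untested, RLE factors and DESeq2 those of LIMA1 and DIAPH1, the exact test those of ACTN1, LIMA1 and DIAPH1, thinning those of CNN3 and DIAPH1, and testing with no filter that of DIAPH1. TPM1 was called with no filter and in DESeq2, and FHOD1 with edgeR's own filter. The cause was not tested.

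Signs turned only in members that passed in neither direction, and in the share of CNN2. CALD1 was at 0.00 with the block and with thinning, and at -0.08 to 0.09 leaving out libraries. LDB3 was at 0.19 with the block, 0.14 with thinning and -0.61 to 0.53 leaving out libraries. LPP was at -0.01 with RLE factors, without a filter, with DESeq2 and with thinning, at -0.03 with edgeR's own filter, and at -0.03 to 0.03 leaving out libraries. With edgeR's own filter CAP1 and PFN1 were at -0.00 and VASP at -0.03, and without a filter VASP was at -0.00. Leaving out libraries gave TPM4 -0.17 to 0.07, WDR1 -0.01 to 0.14, CAP1 -0.04 to 0.07, PFN1 -0.02 to 0.10, TMSB10 -0.03 to 0.13, FMNL2 -0.05 to 0.42, VASP -0.01 to 0.02 and EVL -0.22 to 0.17. The CNN2 share difference of 1.15 points was -0.937 points without siCTR 0412 and at most 3.58 points leaving out another library. With no length correction the TPM3 share difference was 5.28 points in place of 2.46, and that of ENAH 5.67 in place of 2.79. The design of 3 against 3 cannot take a permutation test below 0.1, and genes of a few counts such as CNN1, LDB3 and TAGLN3 were limited by depth.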
